A study of Mus musculus with 2 samples.

Results

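The Reg genes encode small secreted proteins of the C-type lectin fold, named after a protein first found in regenerating pancreatic islets. The 5 members described here, Reg1, Reg3a, Reg3b, Reg3g and Reg4, were taken by gene symbol, and all 5 were found in both count tables, which list 22756 gene rows each. Ribosome footprints, the mRNA stretches left after nuclease digestion because a ribosome covered them, were sequenced from the ileum. All mice were wild type, of strain C57BL/6 and at postnatal day 21. One condition was fed and the other had no food for 48 h, with a single library each. The sources used here do not say how many animals a library holds.

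The intestine makes Reg proteins in epithelial cells and releases them into the lumen and the mucus, where Reg3 proteins keep bacteria away from the cell surface. In the mouse, Reg3g binds the peptidoglycan of Gram-positive bacteria and kills them, while Reg3b is known for defence against Gram-negative bacteria. Both genes are switched on by bacterial signals read through the adaptor MyD88 and by the cytokine IL-22, which acts through the transcription factor STAT3. Reg4 is a marker of enteroendocrine and other secretory cells of the gut, and Reg1 is best known as a pancreatic secretory protein.

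Each condition had n = 1, so every difference below lies between these 2 libraries and not between feeding states, and no test could be run. The fed library held 5558620 counts assigned to genes and the fasted library 5434252. Intervals are 95% exact intervals on counts, cover counting error only, and treat reads of amplified libraries as independent molecules. A footprint count reflects both the amount of an mRNA and how heavily it was translated, and in whole tissue fewer cells of a type and less RNA per cell cannot be told apart. Levels are CPM, counts relative to library size, scaled by TMM, which sets the typical gene's ratio near 1. A gene was counted as lower or higher in the fasted library when its counts summed to 30 or more, its level differed by 1.5-fold or more and the interval did not reach 1. As a check of tissue, all 7 ileum markers were measured, among them the bile acid transporter Slc10a2 with 2458 fed and 2390 fasted counts and the ileal bile acid binding protein Fabp6 with 28873 and 16615. These 2 were counted as neither higher nor lower, while 5 of the 7 were counted as higher in the fasted library.

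Reg1, the 3 Reg3 members and their relative Reg3d lie within 98216 bases of chromosome 6 (GRCm38, the assembly of mm10). In the order of the chromosome these are Reg3b (ENSMUSG00000071356, 78370657 to 78373466, plus strand), Reg3a (ENSMUSG00000079516, 78380709 to 78383827, plus), Reg1 (ENSMUSG00000059654, 78422711 to 78428667, plus) and Reg3g (ENSMUSG00000030017, 78466269 to 78468872, minus). Reg4 (ENSMUSG00000027876) lies apart on chromosome 3, from 98222156 to 98236748 on the plus strand. The 100 bases before the annotated start of each gene are shown because Reg3b and Reg3g, the abundant pair, share an identical run next to it. Whether these bases bear on the fasted/fed ratios was not tested. They are RefSeq sequences of GRCm38.p6, written 5′ to 3′ on the strand of the gene, with any TATAAA in capitals. The starts are those of RefSeq, which for Reg3b, Reg3g and Reg1 are not the outer ends of the gene given above.
Reg3b, chr6:78370785-78370884, plus strand: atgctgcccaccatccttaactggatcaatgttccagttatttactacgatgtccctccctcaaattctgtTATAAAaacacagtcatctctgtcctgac
Reg3g, chr6:78468875-78468974, minus strand: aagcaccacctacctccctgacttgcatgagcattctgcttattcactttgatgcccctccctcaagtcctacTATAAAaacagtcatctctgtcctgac
Reg3a, chr6:78380609-78380708, plus strand: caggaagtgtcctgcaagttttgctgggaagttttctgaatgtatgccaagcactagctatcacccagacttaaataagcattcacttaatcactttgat
Reg3d, chr6:78378866-78378965, minus strand: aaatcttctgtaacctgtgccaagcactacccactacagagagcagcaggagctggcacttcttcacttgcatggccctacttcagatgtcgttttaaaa
Reg1, chr6:78425883-78425982, plus strand: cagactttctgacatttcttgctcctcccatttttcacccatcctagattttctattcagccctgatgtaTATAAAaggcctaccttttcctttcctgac
Reg4, chr3:98222056-98222155, plus strand: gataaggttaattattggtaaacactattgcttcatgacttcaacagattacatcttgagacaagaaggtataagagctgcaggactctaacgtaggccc

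All 5 members matched the promoter table. The 20 bases next to the start, from -20 to -1, are identical in Reg3b and Reg3g, and over the 250 bases before the start no other pair of members shares a run of more than 11 bases. Over the aligned part of those 250 bases, Reg3b and Reg3g were 70.0% identical, Reg3a and Reg3b 69.9%, and Reg3a and Reg3g 71.9%. By this measure the abundant pair was about as alike as each was to Reg3a. TATAAA, searched on both strands of the 100 bases before the start, was found in 3 of the 5 members, from -29 to -24 in Reg3b, -27 to -22 in Reg3g and -30 to -25 in Reg1. Of all 32851 promoters in the table, 5.56% hold it in that window. The letters TTCNNNGAA, the usual form of a STAT site and the same on both strands, occurred within 250 bases of the start in Reg3b only among the members, from -129 to -121. Outside the members, Reg3d also holds these letters, from -238 to -230. Of all promoters 7.02% hold them in that window, and they overlap no TATAAA in Reg3b. These matches are letters in a window and no evidence of binding.

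The coding sequences of the members are related but largely distinguishable by footprints. Reg3b and Reg3g were 76.4% identical over 522 aligned coding bases, Reg3a was 75.3% identical to Reg3b and 73.2% to Reg3g, and Reg4 was 59.7% identical to Reg3b. Of the 498 windows of 28 bases in the coding sequence of Reg3b, 8 also occurred exactly in Reg3g and in no other annotated gene, which leaves 98.4% unique. Reg1, Reg3a and Reg4 shared 0 such windows with any annotated transcript. The windows shared by Reg3b and Reg3g fall in 1 stretch of 35 bases near the start codon, coding positions 26 to 60 in both genes, where a footprint cannot be assigned to either.
Reg3b and Reg3g, shared coding stretch: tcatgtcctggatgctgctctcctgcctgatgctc
Genome sequence outside annotated transcripts was not searched, and the footprint length used by the authors was not known.

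The antibacterial pair carried nearly all Reg footprints. Reg3b had 57652 fed and 23636 fasted counts, which is 9274 and 4864 TMM-scaled CPM. It ranked 6th of all genes by count in the fed library and 24th in the fasted one. The level in the fasted library was 1.91-fold lower, a log2 fasted/fed ratio of -0.93 (interval -0.95 to -0.91). Reg3g had 21334 fed and 6327 fasted counts, or 3432 and 1302 TMM-scaled CPM, and ranked 22nd and 107th. Its level was 2.64-fold lower in the fasted library, a log2 ratio of -1.40 (interval -1.44 to -1.36). Both intervals lie well below the 1.5-fold line. Among the 200 genes with most fed counts, 25 had a lower ratio than Reg3b and 12 a lower ratio than Reg3g, and 40 of the 200 were counted as lower against 51 as higher.

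Reg3a, the third Reg3 gene, whose human namesake REG3A is antibacterial, was far less abundant. It had 544 fed and 314 fasted counts, or 87.5 and 64.6 TMM-scaled CPM. Its difference was the smallest of the 5 values, 1.35-fold lower with a log2 ratio of -0.44 (interval -0.64 to -0.23), and did not reach 1.5-fold. Reg4 had 909 fed and 347 fasted counts, or 146 and 71.4 TMM-scaled CPM. It was 2.05-fold lower, a log2 ratio of -1.03 (interval -1.22 to -0.85). Reg1 was close to the limit of measurement with 29 fed and 13 fasted counts, or 4.66 and 2.68 TMM-scaled CPM. Its log2 ratio of -0.77 had an interval from -1.87 to 0.19, and at this depth a difference could not be detected. Reg3d, which lies between Reg3b and Reg3a, had 1 count in each library. The floor of 3 counts that a zero allows equals 0.483 TMM-scaled CPM for the fed library and 0.617 for the fasted one, and Reg3d was under it in both.

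**Figure D1:**
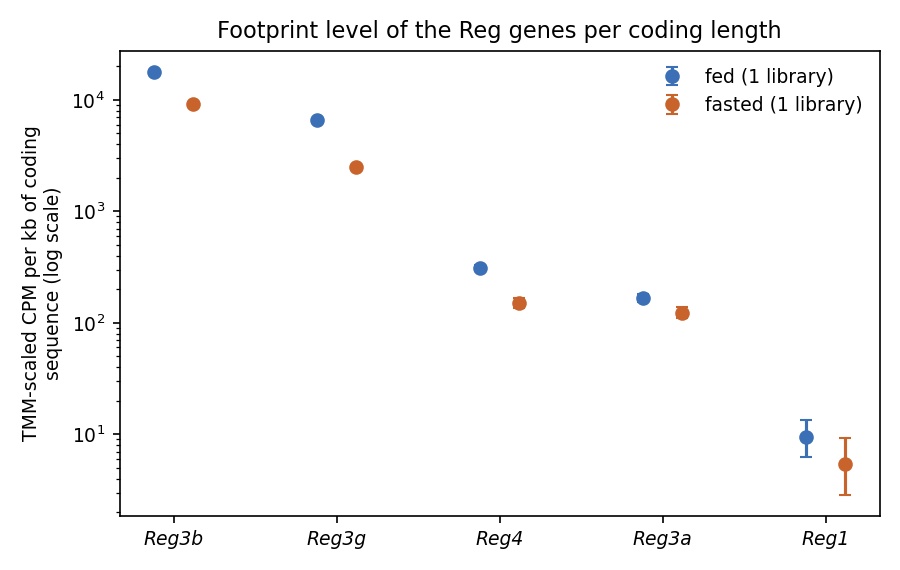
Footprint level of each Reg gene, as TMM-scaled CPM per kilobase of coding sequence on a log axis, with 1 point per library and 95% exact Poisson intervals for counting error. Reg3b and Reg3g sit far above Reg4, Reg3a and Reg1, and each gene's fasted point is below its fed point.

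Thus 3 of the 5 members, Reg3b, Reg3g and Reg4, were counted as lower in the fasted library, 0 as higher and 2 as neither. Among all 11333 measured genes 17.3% were lower and 17.3% higher. At a 2-fold threshold Reg3g and Reg4 were counted, beside 9.13% of all genes. The median log2 ratio over the 5 members was -0.93 and over all measured genes 0.0028. Dividing by total gene counts alone (plain CPM) lowered every log2 ratio by the same 0.32, the median of all genes included. With plain CPM the ratio was -1.25 for Reg3b, -1.72 for Reg3g, -1.36 for Reg4, -0.76 for Reg3a and -1.10 for Reg1. All 5 members were then counted as lower, beside 31.2% of all genes, with 8.86% of all genes higher, so the calls of Reg3a and Reg1 depend on the scaling and those of Reg3b, Reg3g and Reg4 do not.

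**Figure D2:**
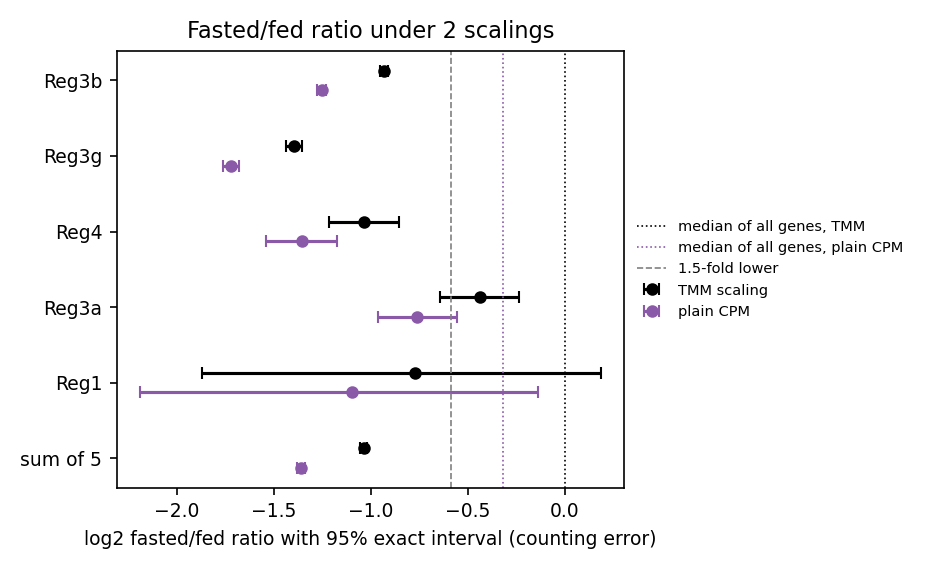
Log2 fasted/fed ratio of the 5 Reg genes and of their summed counts, with 95% exact intervals for counting error, under TMM scaling (black) and plain CPM (purple); dotted lines mark the median of all genes under each scaling and the dashed line a 1.5-fold lower level. Every point lies below 0, and under TMM Reg3b, Reg3g, Reg4 and Reg1 lie beyond the 1.5-fold line, Reg1 with an interval that reaches above 0.

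**Figure D3:**
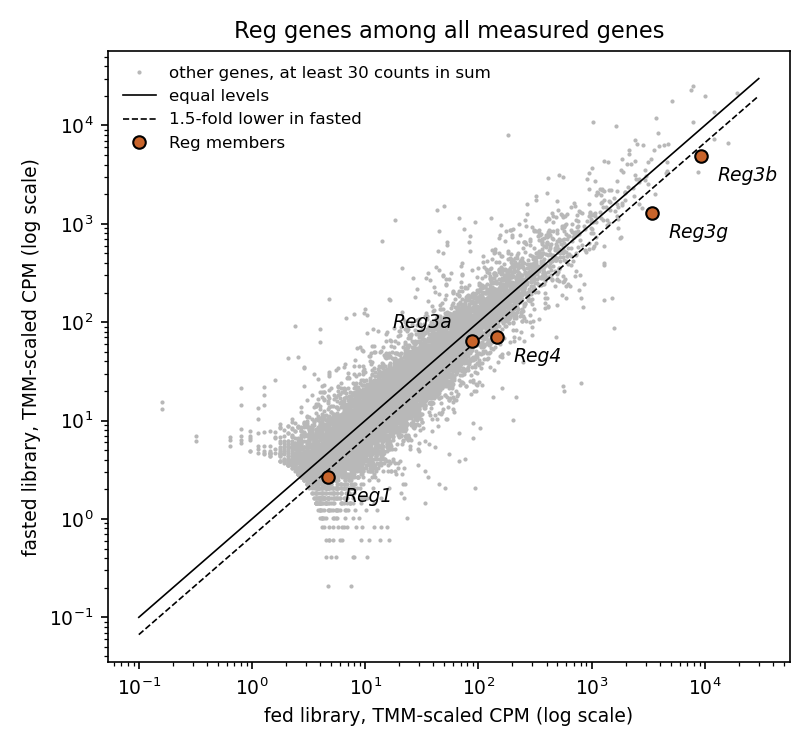
TMM-scaled CPM in the fed library against the fasted library, both on log axes, for genes with at least 30 counts in sum and a count in each library (grey) and the 5 Reg genes (orange). Reg3b, Reg3g, Reg4 and Reg1 lie below the dashed line of a 1.5-fold lower level and Reg3a just above it.

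Per length of coding sequence, Reg3b had the highest footprint level of any gene ranked in the fed library. Its level was 17665 TMM-scaled CPM per kilobase of coding sequence (exact Poisson interval 17521 to 17809), first of 11114 genes, and in the fasted library it was 9265 (9148 to 9384), rank 7. Reg3g was 10th in the fed library at 6574 (6486 to 6663) and 44th in the fasted one at 2494 (2433 to 2557). Reads aligned to several places are not in these gene counts, so the ranks hold among reads assigned to 1 gene. Reg4 followed at 310 (291 to 331) and 152 (136 to 168) per kilobase, ranks 324 and 853. Reg3a had 167 (153 to 181) and 123 (110 to 137), ranks 643 and 1033. Reg1 came last with 9.42 (6.31 to 13.5) and 5.4 (2.88 to 9.24). The order Reg3b, Reg3g, Reg4, Reg3a, Reg1 was the same in both libraries. In the fasted library the intervals of Reg4 and Reg3a touch, and per kilobase of whole transcript Reg3a was the higher there, at 78.3 against 69.9.

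The make-up of the family differed between the libraries, a comparison that no library scaling can alter. Reg3b made up 71.6% of Reg counts in the fed library (interval 71.3% to 72.0%) and 77.1% in the fasted one (76.7% to 77.6%). Reg3g made up 26.5% (26.2% to 26.8%) and 20.7% (20.2% to 21.1%). Reg3b thus held the larger share of the pair in the fasted library, with 2.70 Reg3b counts per Reg3g count in the fed (2.66 to 2.75) and 3.74 in the fasted library (3.63 to 3.84). Reg3a held 0.676% and 1.02% of Reg counts, and Reg4 1.13% in both. Summed over the family, Reg counts took 1.45% of all gene counts in the fed library (interval 1.44% to 1.46%) and 0.564% in the fasted one (0.557% to 0.570%). The summed level was 2.05-fold lower in the fasted library under TMM and 2.57-fold lower with plain CPM.

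Set against each other, the members did not share 1 common ratio. Of the 10 pairs, 5 had an interval on the ratio of their fasted/fed ratios that excluded equality, and 5 did not. The fasted/fed ratio of Reg3b was 1.38 times that of Reg3g, a log2 difference of 0.47 (interval 0.42 to 0.51). Reg3a differed most from Reg3g, with a ratio 1.95 times as high, a log2 difference of 0.96 (0.75 to 1.17), and also differed from Reg3b by 0.49 (0.29 to 0.70). Of the 10 pairs, Reg3a and Reg3g, both in the chromosome 6 cluster, were furthest apart. Reg3a exceeded Reg4 by 0.60 (0.32 to 0.87), and Reg3g lay below Reg4 by a log2 difference of -0.36 (-0.55 to -0.18). Reg3b and Reg4, on different chromosomes, differed by 0.10 with an interval from -0.078 to 0.29, so a difference was not detectable. The 4 pairs with Reg1 all had intervals that included equality, the widest reaching from -1.45 to 0.65 against Reg3a. Since there was 1 library per condition, none of these differences has a replicate check.

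**Figure D4:**
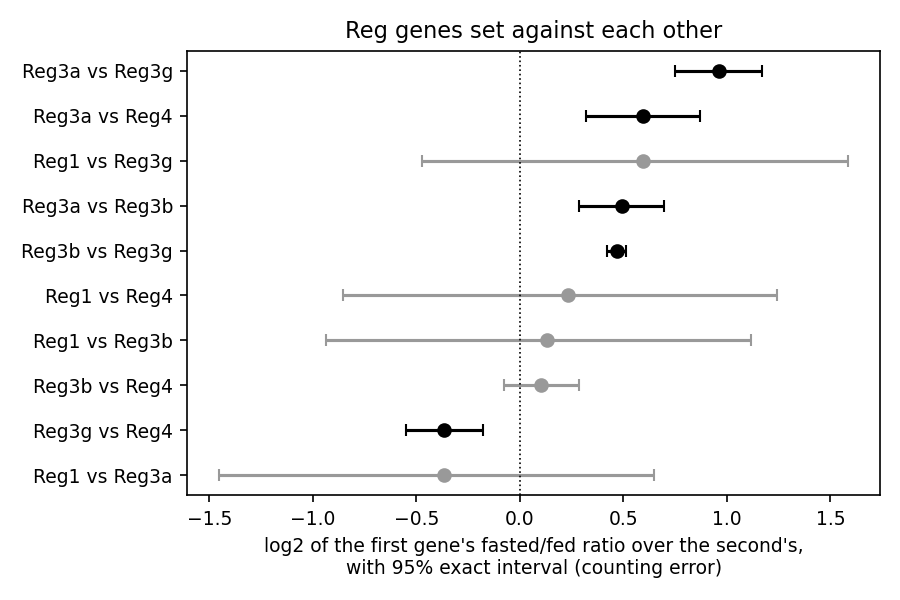
For each of the 10 pairs of Reg genes, the log2 of the first gene's fasted/fed ratio over the second's, with 95% exact intervals for counting error; black points have intervals that exclude 0 and grey points do not. Reg3a lies above Reg3g by 0.96 and Reg3b above Reg3g by 0.47, while Reg3b and Reg4 cannot be separated.

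Among the 200 genes with most fed counts, those nearest to the 2 abundant members were found by the difference of their log2 ratios, over 2 libraries. For Reg3b they were Cd74, the invariant chain of MHC class II (-0.95), Hspa5, the chaperone of the endoplasmic reticulum (-0.91), and Igkc, the kappa light chain constant region (-0.86). For Reg3g they were Clca1, a goblet cell secretory protein (-1.39), the elongation factor Eef2 (-1.38) and the tropomyosin Tpm1 (-1.37). With 2 libraries this likeness is that of a single ratio.

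The route that switches on Reg3b and Reg3g was read from gene lists. Of 16 measured genes of IL-22 and STAT3 signalling, 4 were counted as higher in the fasted library, 2 as lower and 10 as neither, beside 17.3% of all genes each way. Under TMM these counts are near what all genes gave, and the median log2 ratio was 0.074. With plain CPM 3 were higher and 3 lower, beside 8.86% and 31.2% of all genes, at a median of -0.25. Stat3 itself had 1501 fed and 1193 fasted counts and a log2 ratio of 0.024 (interval -0.087 to 0.13), and Il22ra1, the epithelial IL-22 receptor chain, had 454 and 466 counts and 0.39 (0.20 to 0.58). Neither was counted as lower under TMM or plain CPM. The higher members included Il6ra, a chain of the IL-6 receptor (1.22, interval 0.81 to 1.65), Socs3, a STAT3-induced inhibitor of cytokine signalling (0.99, 0.47 to 1.53), and Il17ra (0.61, 0.28 to 0.95). The lower ones were Il12rb1, a receptor chain for IL-12 and IL-23 (-2.41, -4.52 to -1.05), and Il22ra2, the soluble IL-22 binding protein (-0.95, -1.75 to -0.23). Il22 had 1 fed and 0 fasted counts, and Il23r had 2 in each library, too few to compare.

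Of 15 measured epithelial targets of IL-22 and STAT3 other than the Reg genes, 9 were counted as lower, 2 as higher and 4 as neither, beside 17.3% of all genes each way, at a median of -0.78 against 0.0028 for all genes. The lower ones whose intervals lay furthest from 0 were Duoxa2 (-4.62, interval -4.92 to -4.35) and Duox2 (-4.17, -4.31 to -4.03), the maturation factor and the oxidase that make hydrogen peroxide at the cell surface, Sprr2a3, a small proline-rich antibacterial protein (-3.15, -3.71 to -2.68), and Fut2, the fucosyltransferase that decorates the epithelial surface (-3.34, -5.43 to -2.07). On the higher side stood the siderophore-binding protein gene Lcn2 (2.14, 1.52 to 2.83) and the cytokine gene Il18 (0.59, 0.16 to 1.03). Reg3b (-0.93) and Reg3g (-1.40) lay between those 4 lower genes and the median of the list. With plain CPM 10 were lower, beside 31.2% of all genes, and 1 higher, beside 8.86%.

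Genes of bacterial sensing did not share a direction. Of 28 measured, 7 were higher, 4 lower and 17 neither (median 0.20), beside 17.3% of all genes each way. With plain CPM 3 were higher and 8 lower (median -0.12), beside 8.86% and 31.2% of all genes. The numbers lower are near those shares under both scalings. The higher ones included Nfkbia, the NF-kB inhibitor (1.81, interval 1.69 to 1.93), Tlr7 (1.71, 1.18 to 2.28), Irak2 (0.82, 0.63 to 1.0) and the receptor for bacterial flagellin, Tlr5 (1.38, 0.41 to 2.49). The lower ones included Irak4, a kinase downstream of MyD88 (-1.13, -1.47 to -0.82), and Tlr1 (-1.97, -3.81 to -0.68). Myd88 itself had 164 fed and 126 fasted counts, with a ratio of -0.023 (-0.37 to 0.32). Extl3, described as a Reg receptor in rat islets, had 79 and 59 counts and a ratio of -0.063 (-0.58 to 0.44).

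Other lectins of the gut included genes with fed counts between those of Reg3g and Reg3b. Of 14 measured, 1 was higher, 3 lower and 10 neither, beside 17.3% of all genes each way, so the number lower is near that of all genes. The list had a median of 0.13 under TMM and -0.19 with plain CPM. The abundant Itln1, an intelectin of Paneth and goblet cells, had 29014 fed and 20829 fasted counts (-0.12, interval -0.15 to -0.097), and Zg16, a goblet cell lectin that aggregates Gram-positive bacteria, had 27272 and 30721 (0.53, 0.50 to 0.55). Lgals3 was the higher member (0.95, 0.88 to 1.03). Lower were Lgals1 (-1.61, -1.98 to -1.27), Lgals2 (-0.77, -0.84 to -0.71) and Lman2, a cargo lectin of the secretory pathway (-0.64, -0.82 to -0.46). Itln1 and Zg16 were chosen for this comparison after their values were seen.

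**Figure D5:**
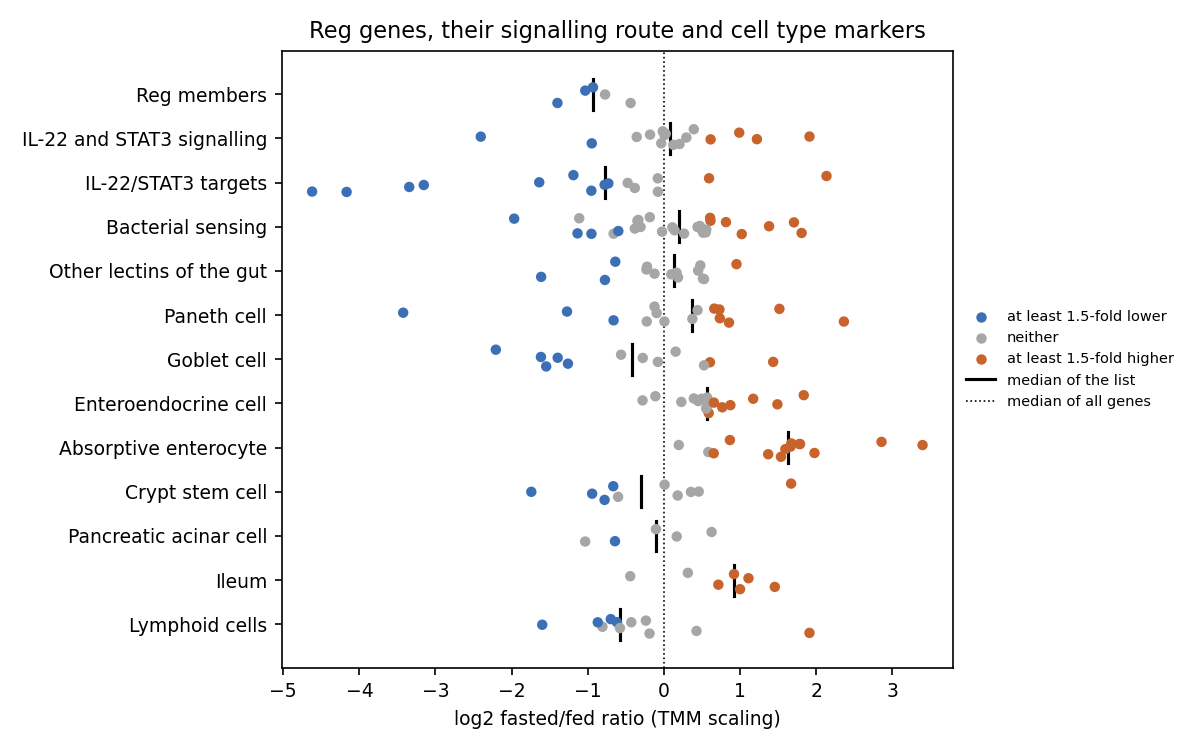
Log2 fasted/fed ratio under TMM of each measured gene in the Reg family and in each list with at least 5 measured genes, coloured by whether it was at least 1.5-fold lower (blue) or higher (orange) with an interval excluding 1; black bars are list medians and the dotted line is the median of all genes. The Reg genes and the IL-22/STAT3 targets lie mostly to the left, at medians of -0.93 and -0.78, and absorptive enterocyte markers to the right.

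Cell type markers did not share 1 direction between the libraries, and their counts stand beside the same 17.3% of all genes each way under TMM, and 8.86% higher and 31.2% lower with plain CPM. Absorptive enterocyte markers had 12 of 14 higher and 0 lower (median 1.63), or 10 and 0 with plain CPM, and their summed counts were 54633 plain CPM for the fed and 115013 for the fasted library. Reg3b and Reg3g, which enterocytes also make, were lower in that same library. Of 12 goblet cell markers 5 were lower and 2 higher (median -0.42), or 7 and 1 with plain CPM, at a sum of 57501 and 36324 plain CPM. Of 15 Paneth cell markers 6 were higher and 3 lower (median 0.37), and 2 and 3 with plain CPM (median 0.052), at 16941 and 15331. Reads aligned to several places are not in these counts, and what this leaves out for the alpha-defensin (Defa) genes of that list was not examined. Markers of enteroendocrine cells, which are among the secretory cells in which Reg4 is known, had 7 of 16 higher and 0 lower (median 0.57), at a sum of 795 and 1032 plain CPM. With plain CPM only 3 of the 16 were higher (median 0.24), and Reg4 was lower under both scalings. Of the other secretory lists, the goblet cell median was below 0 under both scalings and the Paneth cell median above 0. The crypt stem cell list, with 10 measured genes, held 4 lower and 1 higher (median -0.30), or 5 and 1 with plain CPM, at 2115 and 980.4 plain CPM. Of its 11759 fed and 5328 fasted counts, the single gene Olfm4 had 7932 and 1854, so the sum mostly follows that gene. The stem cell marker Lgr5 had 281 and 249 counts and was counted as neither. Markers of lymphocytes and innate lymphoid cells, whose cytokines act on the Reg3 genes, had 4 of 11 lower and 1 higher (median -0.58), or 7 and 1 with plain CPM, at 283 and 207 plain CPM. The ileum markers had 5 of 7 higher and 0 lower (median 0.92), or 4 and 1 with plain CPM, at 11924 and 13789 plain CPM. The part of these differences in the Reg values was not tested.

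Pancreatic acinar cells make Reg1 and other Reg proteins, so their markers were read too. Of 20 listed acinar genes 11 were present in the data, and the others could not be read. Of these 11, the digestive enzyme genes Prss2 and Ctrc and the acinar factor Rbpjl had 0 counts in both libraries. Ctrb1 had 2 fed and 1 fasted count, and Cpb1 had 0 and 2. Pnliprp1 had 49 fed and 43 fasted counts, Bhlha15 27 and 10, and Cela1 14 and 17. The list summed to 791 and 555 plain CPM, mostly from the lipase relative Pnliprp2, with 3473 and 2526 counts, and the colipase gene Clps, with 831 and 416. Of 5 measured acinar genes 1, Clps, was lower and 0 were higher, against 2 and 0 with plain CPM.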

How the data were processed

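Per the labels' protocols, nuclease-treated ileal lysates were passed through a sucrose cushion, and protected fragments were depleted of rRNA, amplified and sequenced. The deposited values are counts of reads for each gene symbol, not normalized by the authors. The submitters' processing notes name cutadapt, Bowtie 1.1.2, STAR, HTSeq and mm10, with no role or order. The sources used here do not give the annotation, strand setting or footprint length, so overlapping or antisense genes cannot be told apart. Reads assigned to no gene (55.0% of the fed and 61.1% of the fasted file, mostly aligned to several places) were left out, and NA was read as 0.

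Libraries were scaled with TMM in edgeR 4.0.16 (R 4.3.3), used for scaling only. Ratios carry 95% exact Clopper-Pearson intervals on the split of a gene's counts, pairs of genes an exact conditional interval of the odds ratio, and levels exact Poisson intervals (SciPy 1.17.1). Log2 ratios have 0.5 counts added to each count. The functions were tested on simulated data that held counting error only. That test says nothing of variation between animals or libraries. Coding lengths, of the longest coding sequence without its stop codon, and shared windows come from GENCODE vM21 (GRCm38). TMM was replaced in turn by total counts (plain CPM), by upper quartiles, by DESeq2 1.42.0 median ratios, and by TMM computed without the members and the 20 most abundant genes. Other alternatives were minimums of 1 and 200 counts, a 2-fold threshold, 99% intervals, 2 added counts, genes with NA left out, and whole transcript length. Windows of 25 and 32 bases were tried beside 28.

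Members and gene lists were chosen with earlier results of these data known. Named genes are the members, Reg3d, Extl3, up to 4 genes per signalling or lectin list counted in its main direction and 2 in the other, ordered by the interval bound nearest to 1, and, for each member with over 1000 counts in both libraries, the 3 genes nearest in ratio among the 200 with most fed counts. Stat3, Il22ra1, Il22, Il23r, Myd88 and the marker genes named singly were added after their values were seen. Reg2 was not analysed here, and some genes that the rule would name are not reported here.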

Additional observations from a re-analysis of the deposited data

How the results depend on the processing

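Each member's log2 ratio stayed below 0 under the other scalings, with 2 counts added and with genes with NA left out. The count of members lower was 5 with plain CPM against 3, with log2 ratios of -0.76 for Reg3a, -1.25 for Reg3b, -1.72 for Reg3g and -1.36 for Reg4. Median-ratio factors, upper-quartile factors, TMM without the most abundant genes, 99% intervals and leaving out genes with NA left the count of members lower at 3, and at 2-fold it was 2. Per kilobase of whole transcript the fed and fasted levels were 11844 and 6212 for Reg3b, 4451 and 1689 for Reg3g, 143 and 69.9 for Reg4, and 106 and 78.3 for Reg3a, and the fed level of Reg1 was 5.16.

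Among IL-22 and STAT3 signalling genes, 0 were lower with a 200-count minimum, and 1 lower and 2 higher at 2-fold. Among their targets, 6 were lower with a 200-count minimum and 6 at 2-fold, against 9 in the main setting. Of these targets, 1 was higher with plain CPM, with upper-quartile factors and at 2-fold, and 0 with a 200-count minimum. Among bacterial sensing genes, 8 were lower and 3 higher with plain CPM, 2 lower and 4 higher with a 200-count minimum, and 2 lower and 4 higher at 2-fold. Among other lectins, 1 was lower and 0 higher at 2-fold. With no minimum count 4 lectins were lower and 2 higher, at a median of -0.013. The cause of these shifts was not tested, beyond that stricter thresholds count fewer genes. Of all measured genes, 31.2% were lower and 8.86% higher with plain CPM, and 9.13% were lower at 2-fold. For the other minimums, upper-quartile factors and the higher side at 2-fold, the share of all genes was not computed. The list counts under those settings thus cannot be set beside all genes. No paired analysis was possible because each condition had 1 library. Depth limits Reg1 and Reg3d, which had 42 and 2 counts in sum.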
